A study of Mus musculus with 4 samples.

Results

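The receptor chains of the common gamma chain cytokines were compared between natural killer (NK) cells of wild-type (WT) and Tcf7 knock-out (KO) mice. The 7 genes were taken by symbol from the deposited gene count table: Il2rg, Il2rb, Il15ra, Il2ra, Il7r, Il4ra and Il21r. All 7 of 7 were found among the 26611 genes of the table, and all 7 passed the filter on low counts. NK cells are innate lymphocytes that kill infected or transformed cells, and Tcf7 encodes the transcription factor Tcf-1. The study compares spleen NK cells of 2 WT and 2 Tcf7 KO mice, both on the C57BL/6 strain background, with each library from its own mouse. Spleen cells were sorted as lacking the T cell receptor beta chain and bearing NK1.1, NKp46, CD11b and KLRG1, a gate of mature NK cells. The ages of the mice, the design of the Tcf7 allele and the cells in which it is lost are not given in the sources used here, and all values describe only the cells that passed this gate.

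The common gamma chain, encoded by Il2rg, is a signalling subunit that the receptors for interleukins 2, 4, 7, 9, 15 and 21 share. Each of these receptors adds its own chain or chains: Il2rb with Il15ra or Il2ra for interleukins 15 and 2, Il7r for interleukin 7, Il4ra for interleukin 4 and Il21r for interleukin 21. Binding of the cytokine activates the kinases Jak1 and Jak3 and then STAT factors, chiefly Stat5 for interleukins 2, 7 and 15. Interleukin 15 is the main survival cytokine of mature NK cells, while Il7r is known for its role in T and B cell precursors, naive T cells and other innate lymphoid cells, and is low on most mature splenic NK cells.

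Of the 7 chains, 5 carry the WSXWS box, a short stretch of tryptophan and serine residues near the membrane that marks class I cytokine receptors, and 2 do not. The coding sequences around it are shown because they separate the signalling chains from the capture chains. Each line reads 5′ to 3′ from the GENCODE M21 transcripts, with the 15 bases of the box in capitals and 15 bases on either side.
Il2rg: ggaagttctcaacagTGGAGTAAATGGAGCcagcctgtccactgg
Il2rb: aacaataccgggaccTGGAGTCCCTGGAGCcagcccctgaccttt
Il7r: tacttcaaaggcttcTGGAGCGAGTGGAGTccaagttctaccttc
Il4ra: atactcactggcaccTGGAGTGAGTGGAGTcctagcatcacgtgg
Il21r: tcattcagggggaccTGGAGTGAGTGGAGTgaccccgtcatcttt
The box starts at residue 238 of Il2rg, 221 of Il2rb, 218 of Il7r, 213 of Il4ra and 214 of Il21r. Il4ra and Il21r share the 15 bases of the box letter for letter. Il2ra (268 residues) and Il15ra (263 residues), which bind their cytokine through sushi domains, held no such box. Over all 21739 genes with a coding sequence in that annotation, 71 (0.327%) held one.

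Libraries held 28254693 to 40175537 counts, so 1 counts-per-million unit (CPM, on library sizes scaled by the TMM method) stands for 29.3 to 39.3 counts. Tcf7, the check of the labels, stood at 89.5 and 79.1 CPM in WT 1 and WT 2 and at 11.2 and 25.0 CPM in KO 1 and KO 2, so the KO mean was 21.5% of the WT mean. The 8 NK cell markers checked, among them Ncr1, Klrb1c, Itgam and Klrg1 for 4 of the sorted proteins, summed to 27105 to 35526 CPM in each library, with Gzma the largest at 17541 and 12325 (WT) against 20483 and 11889 CPM (KO). Of the 8, Klrg1 (log2 fold change 0.58) and Gzmb (0.47) had both KO libraries above both WT libraries, beside 9.64% of all genes tested. Neither was called. Libraries parted by their number more than by genotype. The chi-square per degree of freedom over tested genes was 36.7 and 67.4 for the 2 pairs of the same number, which differ in genotype. Within a genotype it was 146 (WT 1 and WT 2) and 282 (KO 1 and KO 2). Pairs that differ in both stood at 178 (WT 1 and KO 2) and 281 (WT 2 and KO 1). What the numbers 1 and 2 stand for is not given in the sources used here, so values are given for each library. With 2 libraries a group, an exact permutation test gives no p under 0.333, and each p below rests on the spread shared across all genes in the named model.

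Per length, the 7 chains spanned about 4 orders of magnitude and kept the same order in all 4 libraries: Il2rb, Il2rg, Il4ra, Il21r, Il15ra, Il7r and Il2ra. On the RPKM scale (CPM divided by gene length in kilobases), the WT means were 1649 ± 171 for Il2rb, 548 ± 60.6 for Il2rg, 15.7 ± 1.51 for Il4ra, 10.1 ± 1.51 for Il21r, 6.11 ± 0.891 for Il15ra, 2.37 ± 0.788 for Il7r and 0.182 ± 0.0113 for Il2ra (SD, n = 2 each). Neighbours in this order did not overlap over the 4 libraries, except that Il4ra in KO 1 (10.3 RPKM) lay below Il21r in WT 2 (11.2) and KO 2 (10.9). In KO 1, Il7r (0.202 RPKM from 19 counts) and Il2ra (0.154 RPKM from 20 counts) were not separable beyond counting error. Il2rb and Il2rg made up nearly all of the summed RPKM of the family: Il2rb alone held 73.9% to 75.8% of the sum and Il2rg 22.9% to 24.6%. Among the 12723 genes tested, the mean level of Il2rb lay at percentile 99.8 and that of Il2rg at 99.0, while Il7r lay at 21.4 and Il2ra at 4.76.

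**Figure D1:**
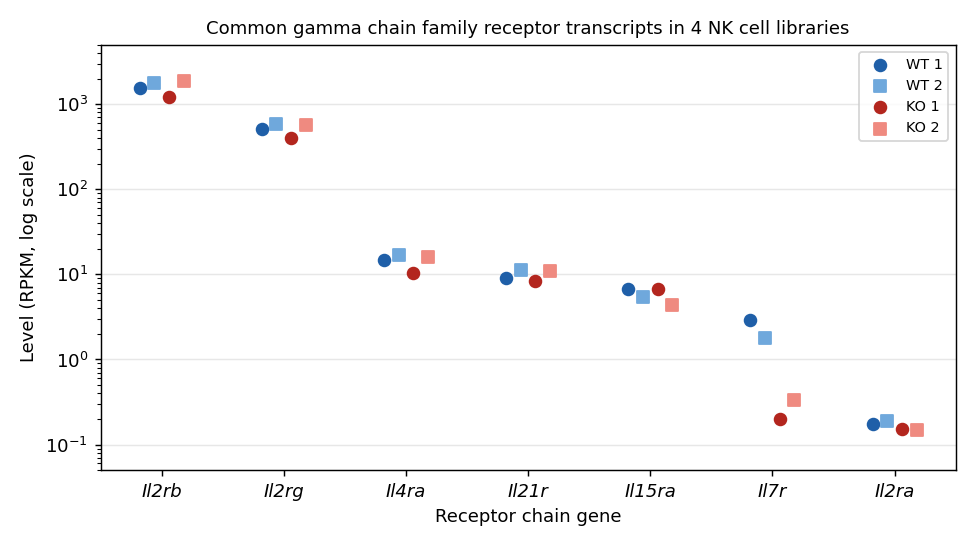
Level of each receptor chain in RPKM on a log axis, with 1 point per library (blue WT, red KO, circles for libraries numbered 1 and squares for those numbered 2). Il2rb and Il2rg lie far above the other chains, and Il7r is the chain whose KO points (0.202 and 0.337 RPKM) lie well below its WT points (2.92 and 1.81 RPKM).

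Il7r, which encodes the interleukin 7 receptor alpha chain (CD127), was the chain with the largest difference. Its counts were 305 in WT 1, 228 in WT 2, 19 in KO 1 and 39 in KO 2, with exact Poisson 95% intervals of 272 to 341, 199 to 260, 11.4 to 29.7 and 27.7 to 53.3 that cover counting error only. Both KO libraries lay far below both WT libraries. The level was 9.38 and 5.80 CPM in the WT libraries and 0.648 and 1.08 CPM in the KO libraries, with means of 7.59 ± 2.53 and 0.865 ± 0.307 CPM (SD, n = 2 each), or 8.78-fold lower in KO. The log2 fold change was -3.12 (SE 0.48, 95% interval -4.40 to -1.84), the 15th lowest of the 12723 genes tested. In bulk RNA, fewer cells that express the gene and less RNA per cell cannot be told apart.

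Whether Il7r passed depended on the model and on the filter. In the quasi-likelihood test of edgeR its p was 0.00194 before adjustment and 1.00 after it. That test called 0 of the 7 chains and 0% of all genes tested. Tcf7, the gene knocked out, was therefore not called either (log2 fold change -2.22), whereas DESeq2 called it lower in KO. A gene not called in the edgeR test is thus not shown to be unchanged. Unadjusted, 1 of the 7 chains (Il7r) and 361 of all genes had an edgeR p under 0.05, which was 2.84% of the genes tested (1.14% lower and 1.7% higher in KO). DESeq2 called 1 of the 7, Il7r (adjusted p = 1.68e-05, lower in KO), beside 0.558% of all genes tested (0.181% lower and 0.377% higher in KO). Limma voom called 0 genes, with 349 at an unadjusted p under 0.05. Over the alternatives in edgeR or voom the adjusted p of Il7r ran from 0.00328 to 1.00, and over those in DESeq2 from 1.68e-05 to 0.386. The DESeq2 call was lost without WT 1 (adjusted p = 0.386). An edgeR call was gained without KO 2 (adjusted p = 0.0338) and when low-count genes were not filtered out (adjusted p = 0.00328). The log2 fold change itself stayed between -3.53 and -2.72 in all 15 alternatives. Between libraries of the same number, with 0.1 CPM added, KO differed from WT by a log2 ratio of -3.66 for number 1 and -2.32 for number 2.

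The other private chains and both shared chains were not called by edgeR, DESeq2 or voom. Il2rg, the common gamma chain itself, stood at 814 and 952 (WT) against 638 and 917 CPM (KO). The groups overlapped, and the log2 fold change was -0.18 (SE 0.27, 95% interval -0.89 to 0.52). Il2rb, the signalling chain shared by the interleukin 2 and 15 receptors, stood at 4122 and 4773 (WT) against 3286 and 5064 CPM (KO). Here KO held both the lowest and the highest library, and the log2 fold change was -0.09 (SE 0.29, 95% interval -0.88 to 0.69).

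Il15ra, which presents and captures interleukin 15, stood at 10.4 and 8.48 (WT) against 10.5 and 6.85 CPM (KO). Its log2 fold change was -0.12 (SE 0.32, 95% interval -0.98 to 0.73), and KO again held both extremes. Il2ra, the high-affinity interleukin 2 chain (CD25), was counted 25 and 33 times in WT and 20 and 24 times in KO, or 0.769, 0.840, 0.682 and 0.666 CPM. The KO pair lay below the WT pair, but by less than the counting error: the exact Poisson 95% interval of the WT 2 count, 22.7 to 46.3, overlapped that of the KO 1 count, 12.2 to 30.9. The log2 fold change of Il2ra was -0.26 (SE 0.48, 95% interval -1.53 to 1.02).

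Il4ra, the interleukin 4 receptor chain, stood at 74.3 and 85.2 (WT) against 52.6 and 81.2 CPM (KO) (log2 fold change -0.25, SE 0.29, 95% interval -1.03 to 0.52). Il21r, the interleukin 21 receptor chain, was the member with the smallest difference. It stood at 23.6 and 29.1 (WT) against 22.1 and 28.4 CPM (KO) (log2 fold change -0.06, SE 0.26, 95% interval -0.75 to 0.62). For both genes the KO and WT libraries overlapped. The intervals of these 6 chains reach below -0.7 and above 0.5, so a difference of that size in either direction was not excluded with 2 libraries a group.

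All 7 log2 fold changes were below 0, with a median of -0.18 against a median of -0.01 over all genes tested, of which 51.8% were below 0. The direction of Il2rb, Il2rg, Il4ra, Il15ra and Il21r turned in some fits with a library left out, for example to 0.19 for Il2rb without KO 1 in edgeR. Each KO library was below each WT library for 2 of the 7 chains, Il7r and Il2ra, while 11.6% of all genes tested showed this and 21.2% had groups that did not overlap in either direction.

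**Figure D2:**
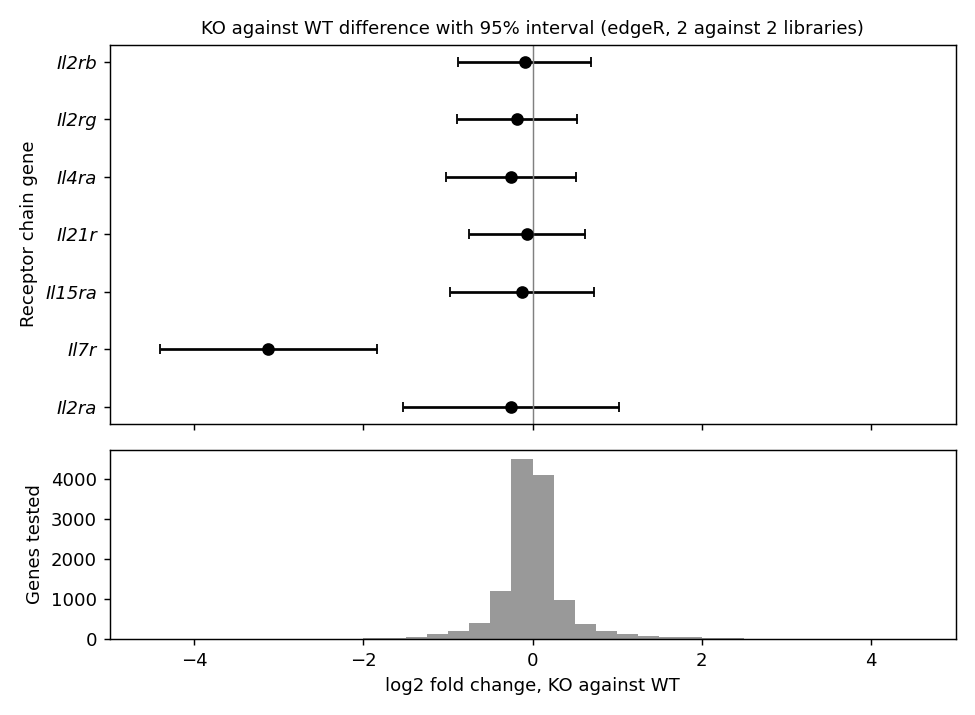
Upper panel, log2 fold change of KO against WT for each chain (points) with its 95% interval from edgeR (bars); lower panel, the number of genes tested per bin of log2 fold change on the same axis. The interval of Il7r (-4.40 to -1.84) lies below 0, and those of the other 6 chains include 0.

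For 5 of the 7 chains, all but Il7r and Il2ra, the mean log2 difference between library numbers was larger than that between genotypes. In Il2rb, Il2rg, Il4ra and Il21r the library numbered 2 lay above that numbered 1 in both genotypes, by 0.20 to 0.31 on the log2 scale in WT and by 0.36 to 0.62 in KO. Il15ra went the other way, with library 2 below library 1 by -0.30 in WT and -0.62 in KO. Il7r had no common direction: library 2 against library 1 was -0.69 in WT and 0.74 in KO, both small beside the difference between genotypes. Tcf7 had the same signs, at -0.18 in WT and 1.16 in KO, so KO 2 held more of both transcripts than KO 1. That is a match of 2 genes over 2 libraries, and a relation between them was not tested.

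**Figure D3:**
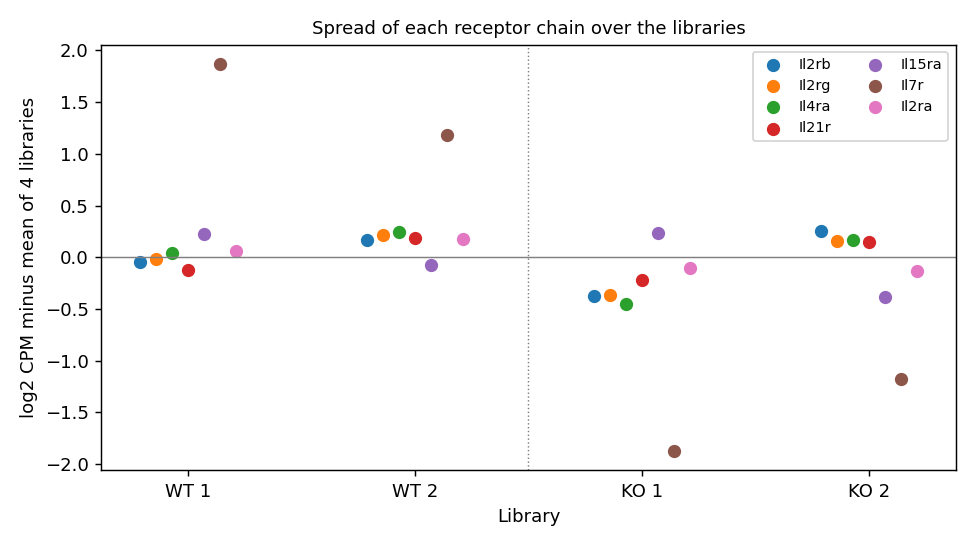
Log2 CPM of each chain minus its mean over the 4 libraries, for WT 1, WT 2, KO 1 and KO 2. Il7r spans 3.74 on this scale, and the other chains span 0.31 to 0.69.

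Ratios within a library do not depend on how libraries are scaled. Il2rb exceeded Il2rg 3.03- and 3.00-fold per length in WT and 3.08- and 3.30-fold in KO, a nearly constant proportion of the interleukin 15 signalling pair. Il15ra stood at 0.441% and 0.309% of Il2rb in WT and at 0.557% and 0.236% in KO. Il7r, which pairs with the common gamma chain, stood at 0.579% and 0.306% of Il2rg in WT and at 0.0510% and 0.0593% in KO. Per length Il2rb was 523 and 979 times Il7r in WT and 6037 and 5572 times Il7r in KO. Il4ra stood at 2.89% and 2.83% of Il2rg in WT and at 2.61% and 2.80% in KO, and Il21r at 1.79% and 1.89% against 2.14% and 1.91%. Only the ratios with Il7r differed by more than 2-fold between the genotypes. Those of Il2rb, Il4ra and Il21r to Il2rg parted by narrow margins, and that of Il15ra to Il2rb overlapped. How often ratios of other gene pairs part between the genotypes was not computed.

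Il7r can also signal with Crlf2, the chain that joins it in the receptor for thymic stromal lymphopoietin. Crlf2 stood at 192 and 154 (WT) against 176 and 143 CPM (KO) (log2 fold change -0.12, SE 0.23). Per length Il7r was 2.07% and 1.60% of Crlf2 in WT and 0.156% and 0.320% in KO. Il13ra1, which joins Il4ra in a receptor of non-lymphoid cells, stood at 1.02 and 0.0509 (WT) against 2.80 and 0.166 CPM (KO), high in the libraries numbered 1. Il9r, the interleukin 9 chain, was counted 2, 4, 1 and 0 times and was not tested. A count of 0 in KO 2 allows up to 0.0832 CPM (3 counts).

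The members lie in pairs or alone on 4 chromosomes of the mouse genome (mm10; positions from the RefSeq table of GRCm38.p6, the same build). Il2ra (chromosome 2, 11642792 to 11693194) and Il15ra (chromosome 2, 11705172 to 11733985) are neighbours 11977 bases apart. Il4ra (chromosome 7, 125552271 to 125579474) and Il21r (chromosome 7, 125603252 to 125634397) are neighbours 23777 bases apart. Il7r (chromosome 15, 9506159 to 9529941) and Il2rb (chromosome 15, 78479256 to 78511621) share a chromosome at a distance, and Il2rg lies on chromosome X (101264385 to 101268255). The nearest protein-coding genes tested on either side of Il7r, Lmbrd2 and Dnajc21, had log2 fold changes of 0.13 (SE 0.22) and -0.13 (SE 0.33). They lie 303675 and 916821 bases away. Gm39760, a non-coding gene that overlaps Il2ra, was not among the genes counted in the deposited data. Reads of overlapping genes cannot be told apart where strand is not used.

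The promoter of Il7r is shown because Tcf-1 is a DNA-binding factor and Il7r is the member that differed. It covers chr15:9529827-9530126 on the minus strand (RefSeq, GRCm38.p6), from 250 bases before to 50 bases after a transcript start, with matches to 3 motifs in capitals.
Il7r promoter: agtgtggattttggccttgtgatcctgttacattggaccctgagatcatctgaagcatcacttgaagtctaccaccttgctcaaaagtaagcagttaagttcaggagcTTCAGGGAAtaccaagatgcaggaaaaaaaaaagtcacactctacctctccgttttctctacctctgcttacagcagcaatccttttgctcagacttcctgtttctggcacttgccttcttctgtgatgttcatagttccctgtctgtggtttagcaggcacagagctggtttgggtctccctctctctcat
The motifs searched on both strands were CTTTGA (the core of TCF/LEF sites), TTCNNNGAA (STAT sites) and TGTTTAC (FOXO sites), and no match overlapped another. The window held 1 STAT match, starting 142 bases before the transcript start, and no CTTTGA or TGTTTAC. Over 32851 promoter windows of this length, 16.0% held CTTTGA, 8.30% TTCNNNGAA and 3.65% TGTTTAC. In the 7 windows listed for 6 of the members, CTTTGA occurred in 1 of 2 windows of Il15ra and TGTTTAC in that of Il21r. A match is a description of the letters, and the series holds no measurement of binding.

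Among all genes tested with a symbol, the 3 whose profile over the 4 libraries was nearest to that of Il7r were Prss12, Kit and Klra1, by root mean square difference of centred log2 CPM (0.08, 0.36 and 0.39). Prss12, a serine protease gene, rested on very few counts, 20 and 16 in WT and 0 and 1 in KO. Kit, the stem cell factor receptor gene and another growth factor receptor of early lymphoid cells, stood at 50.3 and 21.9 (WT) against 5.11 and 7.21 CPM (KO). In Kit, as in Il7r, WT 1 was the highest library and KO 1 the lowest. Klra1, a Ly49 receptor gene, stood at 162 and 90.0 (WT) against 10.5 and 9.65 CPM (KO). A likeness over 4 libraries, picked as the nearest of all genes tested, is a description only.

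Il7r is also carried by other innate lymphoid cells and T cells, so their markers are given beside it. Of 12 markers of other innate lymphoid cells, 9 were tested, and the KO pair lay below the WT pair for 4 of them, Kit, Icos, Rora and Thy1, beside 11.6% of all genes tested. The log2 fold changes of the list had a median of -0.14, with 6 below 0 and 3 above it (Il1rl1 0.84, Itga1 0.44 and Cxcr6 0.11). Icos, a co-stimulatory receptor gene, stood at 10.6 and 12.3 (WT) against 2.80 and 3.80 CPM (KO), and DESeq2 called it (adjusted p = 0.00377) and Kit (0.000792) lower, which was 2 of the 9 beside 0.181% of all genes tested. In that list edgeR called 0, with 2 of the 9 at an unadjusted p under 0.05 beside 2.84% of all genes tested. This list and those of the other cell types below were chosen with earlier results of these data known. Their counts beside the share of all genes are therefore a description only. Rora, a transcription factor gene needed for group 2 innate lymphoid cells, stood at 2.34 and 5.65 (WT) against 0.648 and 1.69 CPM (KO). Defining markers of such cells were low in every library: Il23r was counted 1, 0, 0 and 0 times and Il1rl1 14, 13, 28 and 15 times. The 12 markers summed to 539 and 683 CPM in the WT pair and 487 and 579 CPM in the KO pair, most of it from Il18r1, Thy1 and Gata3, which NK cells also express. The part of such cells in the Il7r result was not tested.

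Of 12 T cell markers, 11 were tested, with 1 whose KO pair lay below the WT pair (Cd28, at 88.9 and 64.7 against 39.9 and 23.1 CPM) and 1 whose KO pair lay above it (Trac), beside 11.6% and 9.64% of all genes tested. Trac, the constant region of the T cell receptor alpha chain, stood at 5.88 and 8.30 (WT) against 94.0 and 36.1 CPM (KO), and DESeq2 called it higher (adjusted p = 7.04e-06), 1 of the 11 beside 0.377% of all genes tested. The sum of the list was 319 and 240 CPM in the WT pair and 349 and 187 CPM in the KO pair. Much of it came from Trbc2, at 121 and 96.9 (WT) against 120 and 65.0 CPM (KO). Trbc1 stood at 92.5 and 64.5 (WT) against 84.7 and 56.0 CPM (KO). Of the CD3 chains of the T cell receptor complex, Cd3e was counted 13, 18, 7 and 22 times. Cd3d was counted 124, 45, 92 and 45 times and Cd3g 107, 142, 159 and 120 times. For each of these genes the KO and WT libraries overlapped. B cell markers, relevant because B cells carry Il4ra and Il21r, summed to 245 and 172 CPM in the WT pair and 447 and 223 CPM in the KO pair. Myeloid markers summed to 862 and 616 CPM in the WT pair and 1668 and 1239 CPM in the KO pair, mostly from Itgax, which NK cells also express. Among markers of neutrophils and their precursors, S100a8 stood at 9.94 and 0.687 (WT) against 118 and 22.4 CPM (KO), and Mpo at 0.246 and 0.0255 against 11.3 and 2.97 CPM. Elane was counted 2 and 0 times in WT and 183 and 33 times in KO. The KO pair lay above the WT pair for 5 of the 9 myeloid markers tested and for all 5 erythroid markers tested (6 were listed), beside 9.64% of all genes tested. DESeq2 called 2 of the 9 myeloid markers (Mpo, adjusted p = 1.08e-05, and Elane, 0.000665) and 3 of the 5 erythroid markers higher, beside 0.377% of all genes tested. In edgeR 0 of them were called. The unadjusted edgeR p was under 0.05 for 3 of the 9 and 5 of the 5, all higher in KO, beside 1.7% of all genes tested. Erythroid markers summed to 35.7 and 27.6 CPM in the WT pair and 194 and 121 CPM in the KO pair. The part of T, B, myeloid and erythroid cells in the receptor values was not tested.

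**Figure D4:**
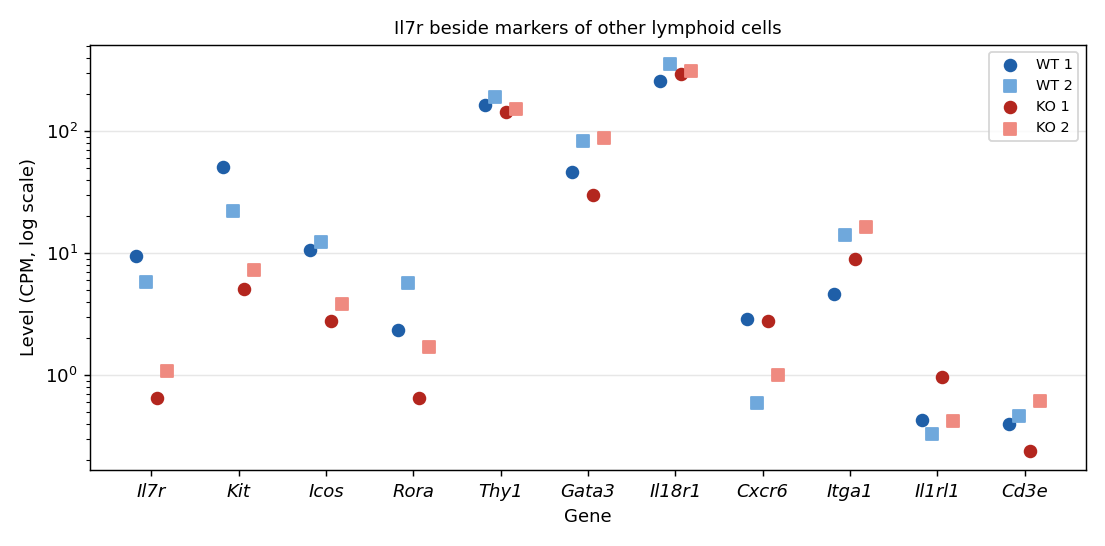
Level in CPM on a log axis of Il7r, of the 9 tested markers of other innate lymphoid cells, in order of log2 fold change, and of the T cell marker Cd3e, with 1 point per library. Il7r, Kit, Icos, Rora and Thy1 have both KO points below both WT points, Thy1 by a narrow margin, and the other markers overlap.

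The ligands of these receptors other than Il15 were low or not detected as transcripts in the sorted cells. Il15 was the most abundant, at percentile 48.1 of the genes tested by mean RPKM. It stood at 14.9 and 10.6 (WT) against 8.97 and 5.63 CPM (KO). The KO pair lay below the WT pair, and the gene did not pass (log2 fold change -0.81, SE 0.36, edgeR unadjusted p = 0.0792, DESeq2 adjusted p = 1.00). Il7 stood at 1.35 and 0.509 (WT) against 1.13 and 1.16 CPM (KO) (log2 fold change 0.30, SE 0.64). Il2 was counted 12, 4, 5 and 6 times, too few to be tested, and Il9, Il13 and Il21 were counted 0 times in every library, which allows up to 0.102 CPM in the shallowest (3 counts).

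Of 53 further genes of the pathway, in 6 lists, 45 were tested and 0 were called by edgeR or DESeq2, with 2 at an unadjusted edgeR p under 0.05 (2.84% of all genes tested had one). Their median log2 fold change was -0.02, and the KO pair lay below the WT pair for 9 of the 45 and above them for 2, where 11.6% and 9.64% of all genes tested did so. Those 2 genes with the small p were Socs2 and Irs2. Socs2, a feedback inhibitor that STAT5 induces, stood at 3.11 and 5.47 (WT) against 11.6 and 15.6 CPM (KO) (log2 fold change 1.66, SE 0.39). Both KO libraries lay above both WT libraries, 3.16-fold in the means, and DESeq2 gave an adjusted p of 0.0600. Irs2, an adaptor for interleukin 4 and insulin receptors that was named after its values were seen, stood at 9.75 and 14.4 (WT) against 3.65 and 5.60 CPM (KO) (log2 fold change -1.38, SE 0.37, DESeq2 adjusted p = 0.282).

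Kinases and STAT factors lay close together, with 7 log2 fold changes from -0.39 to 0.03, of which 5 were below 0 (median -0.10). Jak1, which binds the private chains, stood at 1530 and 2326 (WT) against 1131 and 2013 CPM (KO). Stat6, the factor of interleukin 4, had a log2 fold change of 0.03 (SE 0.33). Stat5b, which carries the interleukin 2, 7 and 15 signals, stood at 143 and 171 (WT) against 104 and 137 CPM (KO) (log2 fold change -0.39, SE 0.24). In the list of inhibitors and adaptors 7 of 13 log2 fold changes were below 0, and the most abundant were Pik3cd (log2 fold change -0.07) and Pik3r1 (-0.02), subunits of a phosphoinositide kinase. Cish, another STAT5-induced inhibitor, also named after its values were seen, overlapped between the groups at 9.23 and 22.7 (WT) against 16.8 and 51.4 CPM (KO).

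Targets of STAT5 or of these cytokines had a median log2 fold change of -0.01 over 13 genes, 6 of them above 0. The most abundant were Id2, an inhibitor of DNA binding that NK cells need (-0.20, SE 0.19), and the cyclin gene Ccnd2 (0.43, SE 0.38). Osm, the oncostatin M gene, had the smallest p of the list and stood at 19.7 and 22.0 (WT) against 24.8 and 46.8 CPM (KO) (edgeR unadjusted p = 0.0970). The STAT5-induced inhibitors Socs2 (log2 fold change 1.66, SE 0.39) and Cish (1.10, SE 0.71) were in the inhibitor list. They do not enter the median of these 13 genes. Activity of STAT5 was not tested. The 8 genes listed as regulators of Il7r transcription had log2 fold changes from -0.30 to 0.06, with 7 below 0 (median -0.09). Their part in the Il7r difference was not tested. Klf2 stood at 1085 and 1576 (WT) against 1031 and 1526 CPM (KO). Ets1, with the smallest p of that list (edgeR unadjusted p = 0.261), stood at 1178 and 1559 (WT) against 1107 and 1119 CPM (KO).

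**Figure D5:**
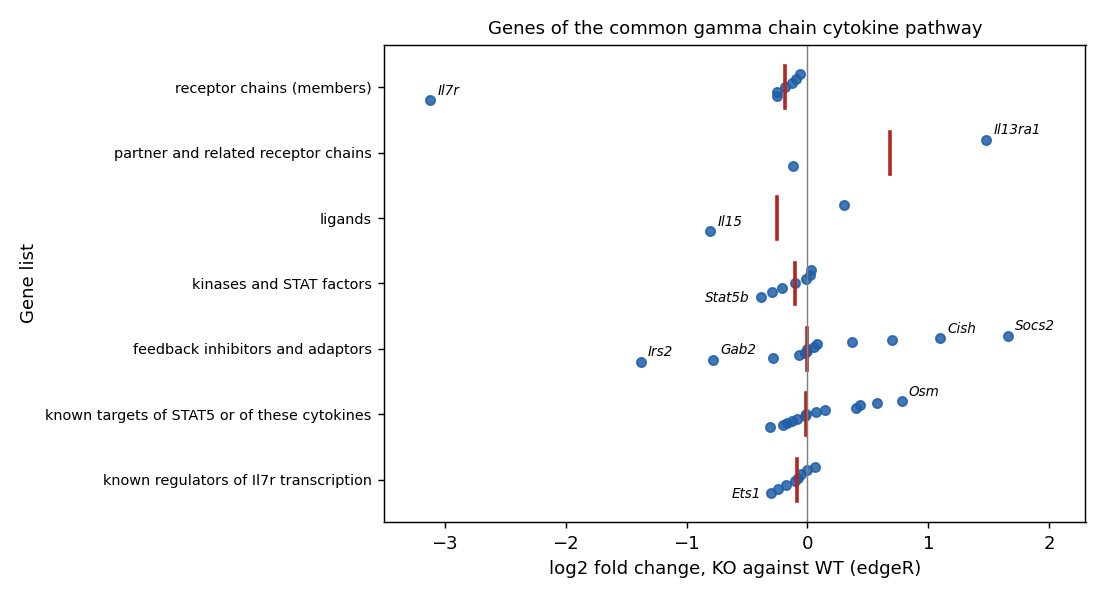
Log2 fold change of KO against WT from edgeR for each tested gene (points) of the 7 pathway lists, with the median of each list as a red bar. Il7r lies at -3.12, apart from the other receptor chains, Socs2 (1.66) and Irs2 (-1.38) lie at the ends of the inhibitor and adaptor list, and the regulators of Il7r lie between -0.30 and 0.06.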

How the data were processed

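RNA of sorted spleen NK cells was sequenced in 4 libraries from 200 ng of total RNA each, with a TruSeq preparation and paired-end reads on a NextSeq instrument, per the labels' protocols. Deposited were raw counts for each Entrez gene and the gene length in bases, per the file headers. Counting by the authors used featureCounts and the mm10 build, according to the submitters' processing notes. Aligner, versions and strand setting are not given in the sources used here. All 4 single-library files equalled the series table, and 0 columns were left without a library. RefSeq matched 25275 of 26611 gene numbers (95.0%) to a symbol. Unmatched genes held 1.23% of counts and stayed in the tests.

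Genes were kept with filterByExpr (minimum count 10), leaving 12723. KO was tested against WT by quasi-likelihood in edgeR 4.0.16 under R 4.3.3 (TMM, robust, genotype as the only term, two-sided), with Benjamini-Hochberg adjusted p under 0.05 over all genes tested. CPM and RPKM are scaled with TMM, and log2 CPM used a prior count of 2. SEs come from the fold change and its F statistic. DESeq2 1.42.0 and limma 3.58.1 (voom) were alternatives, as were other scalings, other filters, the replicate number as a block and each library left out. DESeq2 with each library left out was added after seeing the data. The fits were first tested on simulated data. From each pathway list, genes passing a test were named, or else the 2 most abundant tested genes and the one with the smallest p; others are marked. The receptor chains and gene lists were chosen with earlier results of these data known. The labels name separate mice per genotype but no litter or day. Values of 2 marker genes are not reported here.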

Additional observations from a re-analysis of the deposited data

How the results depend on the processing

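All 15 alternatives kept Il7r below 0. With all 4 libraries kept, its edgeR adjusted p passed with no filter on low counts (log2 fold change -3.11, adjusted p = 0.00328). It also passed with the replicate number as a block (-3.08, 0.00504). In each of these fits 1 of the 7 chains was called. The number of genes called was 0 in the main test, 35 with no filter, 71 by DESeq2 (1 of 7 chains) and 221 with the replicate block; it was 0 with either other scaling, with at least 5 CPM in 2 libraries (which leaves out Il2ra) and with voom. Leaving out each library in turn, where a lone library is assumed to vary like the other group, gave 0 to 53 genes and 0 to 1 chains in edgeR. DESeq2 gave 50 genes without WT 1, 34 without WT 2, 52 without KO 1 and 74 without KO 2, and 0 to 1 chains. In the edgeR fits the log2 fold change ran from -3.51 to -2.74 for Il7r, -0.40 to 0.19 for Il2rb, -0.44 to 0.055 for Il2rg, -0.57 to 0.026 for Il4ra, -0.46 to 0.18 for Il15ra and -0.22 to 0.11 for Il21r. DESeq2 gave values above 0 without WT 1 for Il15ra (0.059), without WT 2 for Il2rb (0.032) and Il21r (0.11), without KO 1 for Il2rb (0.20), Il2rg (0.070), Il4ra (0.040) and Il21r (0.12), and without KO 2 for Il15ra (0.17). Il2ra kept its sign, from -0.32 to -0.17. No sign turned under the other alternatives. The cause of these differences was not tested.

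The libraries share only a replicate number across genotypes. Deviations from the group means correlated at 0.73 over 12723 genes, a hint from the data and not from the design. The paired values above are the replicate-block fit and, apart from that fit, the log2 ratios between libraries of the same number. Depth limits Il2ra, at 20 to 33 counts a library, and Il7r in KO, at 19 and 39.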
